A study of Mus musculus with 8 samples.

Results

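PACAP (pituitary adenylate cyclase-activating polypeptide, gene Adcyap1), its relative VIP (vasoactive intestinal peptide, Vip) and their receptors PAC1 (Adcyap1r1), VPAC1 (Vipr1) and VPAC2 (Vipr2) were examined in brain tissue of mice that had received the peptide itself. The members were all probes of the array that carried the name of one of these 5 genes, and the name matched 7 of the 41174 probes. Adcyap1, Vip and Vipr1 had 1 probe each, and Adcyap1r1 and Vipr2 had 2 each. The arrays held 14728 gene names that the RefSeq table lists.

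The animals were male C57BL/6J mice, 8 to 12 weeks old by the labels, whereas the methods give a single age within that range. Controls and ischemic mice alike were operated on at the neck and injected into a ventricle, with 1 µl of saline or with 1 pmol of PACAP38, the long form of the peptide, in 1 µl. In PMCAO (permanent middle cerebral artery occlusion) mice a filament was left in the vessel, and in sham mice the wound was closed once the carotid artery had been exposed. The right (ischemic, non-injected) hemisphere was taken at 6 h or 24 h without olfactory bulb and cerebellum, and it contained infarct core, penumbra and spared tissue together. The PMCAO mice were chosen by their neurological grade, leaving out those without signs of occlusion or with extreme symptoms. RNA of 3 mice was pooled for each of the 8 groups, so that every group was 1 pool. Each saline pool was hybridized against its PACAP38 pool on 2 arrays with the dyes exchanged, named replicate 1 (PACAP38 in Cy5) and replicate 2 (PACAP38 in Cy3). The 2 arrays are technical repeats, their spread is no spread between mice, and a single comparison therefore allowed no test. One slide carried the 6 h arrays and another the 24 h arrays, and the effects of slide and of time cannot be told apart.

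PACAP and VIP belong to the secretin family of peptides and are cut from larger precursors in neurons. PAC1 prefers PACAP, whereas VPAC1 and VPAC2 bind both peptides. These receptors act through Gs, adenylate cyclase and cyclic AMP, and PAC1 also through phospholipase C. In the brain PACAP is known as a neuroprotective and neurotrophic peptide, and in the cortex VIP marks a class of inhibitory interneurons.

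Each level rests on one short sequence, and for the genes with 2 probes the value depended on which of these was read. The first 30 of the 60 bases of each probe are therefore shown, 5′ to 3′, in lower case, with no part marked, as the array files give them.
Adcyap1 A_52_P425667: gttccactgcctgacagatcaggtgctggt
Vip A_51_P368313: ggataaaagagatatgtggcaaaaggattt
Adcyap1r1 A_51_P259603: caagctctgaaaacaacaccgctgtgtgct
Adcyap1r1 A_52_P615225: tcctacatgccatcttcagcctggactcaa
Vipr1 A_52_P227279: gggcaaggcatcttatgcctccctccatct
Vipr2 A_51_P473205: tcctcatgtgtaacttgattgaaacaccaa
Vipr2 A_52_P405556: cagactcatgaattttaccagctaatttgt

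The files place the probes on the mm7 assembly. The Adcyap1 probe lies at chr17:91631427-91631486, the Vip probe at chr10:4699488-4699547 on the minus strand, and the Vipr1 probe at chr9:121370699-121370758. The Adcyap1r1 probes lie at chr6:55464205-55464264 (A_51_P259603) and chr6:55461547-55461606 (A_52_P615225), 2658 bases apart. The Vipr2 probes lie at chr12:113875747-113875806 (A_51_P473205) and chr12:113871005-113871064 (A_52_P405556), 4742 bases apart. Whether a probe lies in a coding exon or an untranslated region was not analysed here. The Vip gene is on the plus strand in GRCm38.p6. All 6 neighbouring genes with a probe within 1 Mb were also listed opposite to their RefSeq strand, so this stretch of the chromosome has the other orientation in mm7. No 2 member probes shared a run of more than 8 bases.

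Of the 7 probes, 5 were well above background in all 16 channels and are called measured below. Both Vipr2 probes were dim, and only A_52_P405556 was well above background, in both channels of 1 array, sham 24 h replicate 1. Levels are given as log2 of the processed signal after scaling between arrays, as the mean ± SD of the Cy3 and Cy5 values of a pool (n = 2 technical values). A level says nothing about the level of another gene, since probes differ in how they bind.

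One array stood apart from the others. On sham 6 h replicate 2 the image processing software marked 10.7% of the spots as outliers, against 0.323% to 3.09% on the other 7 arrays. The channels of this array correlated with those of other arrays of 6 h at a median Pearson r of 0.853 and 0.861. For all other channels the median was 0.971 to 0.987. The spots of Vip and of Adcyap1r1 A_51_P259603 were among the marked ones there and were left out, so that their sham 6 h values come from replicate 1 alone. The PMCAO-to-sham values of the members at 6 h are therefore also given from replicate 1, which leaves this array out.

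Adcyap1 was lower after PMCAO at 24 h, at 0.67-fold of sham in saline and 0.70-fold in PACAP38 mice. At 24 h its level was 11.15 ± 0.08 in the sham saline pool, 11.16 ± 0.06 in the sham PACAP38 pool, 10.58 ± 0.03 in the PMCAO saline pool and 10.65 ± 0.06 in the PMCAO PACAP38 pool. The 4 values of the PMCAO pools all lay below the 4 values of the sham pools. On the log2 scale the difference, PMCAO minus sham, was -0.57 ± 0.11 in saline and -0.51 ± 0.12 in PACAP38. In order of level the 2 sham pools did not differ beyond their spread, the step from sham to PMCAO was 0.50 against an SD of 0.08, and the step between the PMCAO pools was 0.07 against 0.06. In tissue homogenates such as these, fewer cells that make a transcript and less of it per cell cannot be told apart.

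At 6 h the level of Adcyap1 was 10.36 ± 0.67 in the sham saline pool, 10.31 ± 0.88 in the sham PACAP38 pool, and 11.13 in both PMCAO pools (SD 0.01 in saline and 0.18 in PACAP38). The wide spread of the sham pools came from the array that stood apart, which read 9.88 and 9.69, whereas replicate 1 read 10.84 and 10.93. The PMCAO-to-sham ratio was 1.70-fold in saline and 1.76-fold in PACAP38 over both dye values. With replicate 1 alone it was 1.21-fold and 1.25-fold, inside the 1.5-fold limit, and under another background correction (normexp, then loess) the log2 differences of 0.76 and 0.82 were 0.38 and 0.47, also inside it. The 6 h difference was above 0 in every same-dye pair, while its size rested on 1 array and on the correction.

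Vip was lower after PMCAO in the saline pools at both times. At 24 h its level was 10.63 ± 0.20 in the sham saline pool, 10.65 ± 0.09 in the sham PACAP38 pool, 9.99 ± 0.21 in the PMCAO saline pool and 10.44 in the PMCAO PACAP38 pool, where both dye values were 10.44. The PMCAO saline pool was the lowest, and neither of its values reached those of the other 3 pools. The PMCAO-to-sham ratio was 0.64-fold in saline (-0.64 ± 0.01 on the log2 scale) and 0.87-fold in PACAP38 (-0.21 ± 0.09). The step between the PMCAO PACAP38 and PMCAO saline pools was 0.45 against a spread of 0.21, and the 3 higher pools did not differ from their neighbours beyond their spread.

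At 6 h the Vip level on replicate 1 was 11.07 in the sham saline pool and 11.00 in the sham PACAP38 pool. The PMCAO pools were at 10.70 ± 0.39 (saline) and 10.54 ± 0.21 (PACAP38). Compared within the same dye, PMCAO was at 0.64-fold of sham in saline and 0.66-fold in PACAP38. The marked spots of replicate 2 read 12.10 in each sham pool, and with these kept the ratios were 0.54-fold and 0.50-fold. PMCAO lay below sham for Vip in all 6 same-dye differences without a marked spot, and in the 2 with one.

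**Figure D1:**
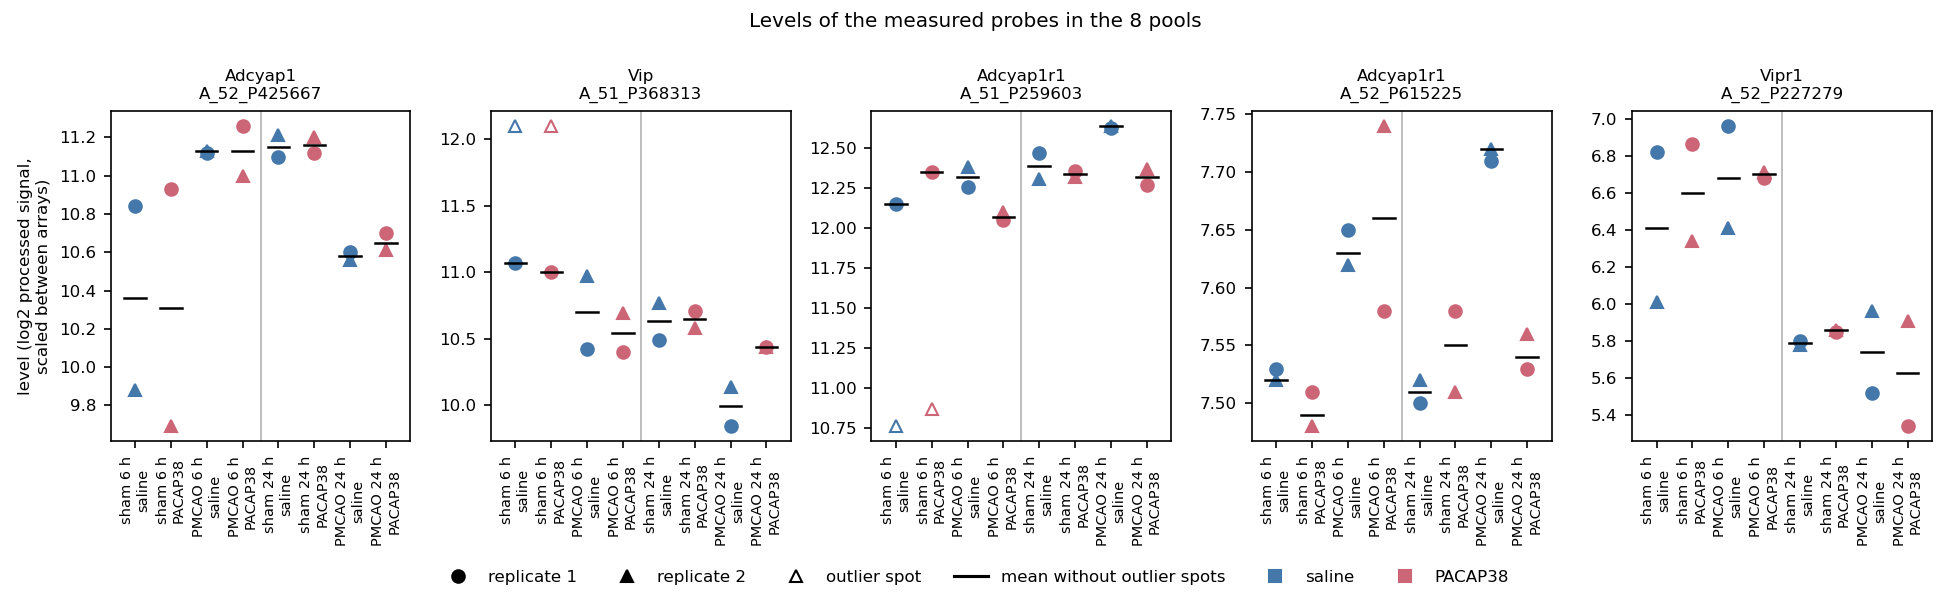
Levels of the 5 measured probes (log2 processed signal, scaled between arrays; each panel has its own axis) in the 8 pools, with the 2 arrays as circles and triangles, the mean as a line, spots marked as outliers hollow, saline in blue and PACAP38 in red. Among the pools of 24 h Adcyap1 is lower in PMCAO (10.58 and 10.65) than in sham, Vip is lowest in the PMCAO saline pool (9.99), and the array sham 6 h replicate 2 lies far from replicate 1 for Adcyap1, Vip and Adcyap1r1 A_51_P259603.

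Adcyap1r1, the PAC1 receptor, differed little between the pools. For the bright probe A_51_P259603 the level at 24 h was 12.39 ± 0.11 in the sham saline pool, 12.34 ± 0.02 in the sham PACAP38 pool, 12.64 in the PMCAO saline pool (12.63 and 12.64) and 12.32 ± 0.07 in the PMCAO PACAP38 pool. The PMCAO saline pool was the highest, by 0.25 against a spread of 0.11, and the other 3 did not differ from their neighbours beyond their spread. PMCAO was at 1.19-fold of sham in saline (0.25 ± 0.11 on the log2 scale) and 0.99-fold in PACAP38. The second probe, A_52_P615225, read 7.51 and 7.55 in the sham pools (saline, then PACAP38) and 7.72 and 7.54 in the PMCAO pools at 24 h. It gave 1.15-fold in saline, 0.20 ± 0.01 on the log2 scale, and 1.00-fold in PACAP38, and its PMCAO saline pool was likewise the highest.

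At 6 h the bright Adcyap1r1 probe read 12.15 in the sham saline pool and 12.35 in the sham PACAP38 pool on replicate 1, and 12.32 ± 0.08 and 12.07 ± 0.04 in the PMCAO pools. PMCAO was at 1.08-fold of sham in saline and 0.81-fold in PACAP38. With the marked spots kept, these became 1.83-fold and 1.38-fold. For A_52_P615225, which was not marked, the ratios were 1.08-fold and 1.12-fold (1.09-fold and 1.05-fold on replicate 1). In PACAP38 the 2 probes thus lay on opposite sides of sham.

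Vipr1, the VPAC1 receptor, had the widest spread between dyes among the measured probes at 24 h after PMCAO. Its level there was 5.79 ± 0.01 in the sham saline pool, 5.86 ± 0.01 in the sham PACAP38 pool, 5.74 ± 0.31 in the PMCAO saline pool and 5.63 ± 0.40 in the PMCAO PACAP38 pool. At 6 h it was 6.41 ± 0.58, 6.60 ± 0.36, 6.68 ± 0.39 and 6.70 ± 0.02 in the same order. PMCAO over sham on the log2 scale was 0.27 ± 0.19 in saline and 0.10 ± 0.38 in PACAP38 at 6 h. On replicate 1 alone these were 0.13 and -0.17, so that the sign in PACAP38 turned without the array that stood apart. At 24 h the differences were -0.05 ± 0.33 and -0.23 ± 0.39. Apart from the step of 0.07 between the 2 sham pools at 24 h, no neighbours in the order of pools differed beyond their spread.

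Vipr2, the VPAC2 receptor, was not well above background with either probe on 7 of the 8 arrays, and no ratio is given for it. Probe A_52_P405556 read 5.38 in saline and 5.50 in PACAP38 on sham 24 h replicate 1, but 1.66 and 2.10 on replicate 2 of the same RNA. The mean of the sham pools at 24 h, 3.52 in saline and 3.8 in PACAP38, was under the lowest signal counted as above background on the PMCAO arrays, 4.15 and 4.25, so that not even a limit could be set. Probe A_51_P473205 was not well above background in any channel.

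Set against the whole array, PMCAO over sham put 2 of the 5 measured probes past the limits of 1.5-fold and 0.75-fold in saline at 6 h (Adcyap1 higher and Vip lower), the same 2 in PACAP38 at 6 h, 2 in saline at 24 h (Adcyap1 and Vip, both lower) and 1 in PACAP38 at 24 h (Adcyap1, lower). At 6 h, 50.7% of all probes in saline and 43.4% in PACAP38 were past these limits (51.8% and 43.9% of probes well above background in every channel), so that the member count there is no larger than the share of the array. Without the array that stood apart these shares were 34.4% and 29.4%, and Vip alone remained past the limit. At 24 h the shares were 23.9% of all probes and 19.2% of those above background in saline, and 15.0% and 8.74% in PACAP38. With 5 probes the counts of 2 and 1 cannot be set apart from these shares. Both Adcyap1 values at 24 h and the Vip value in saline were past the limit on each dye separately.

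**Figure D2:**
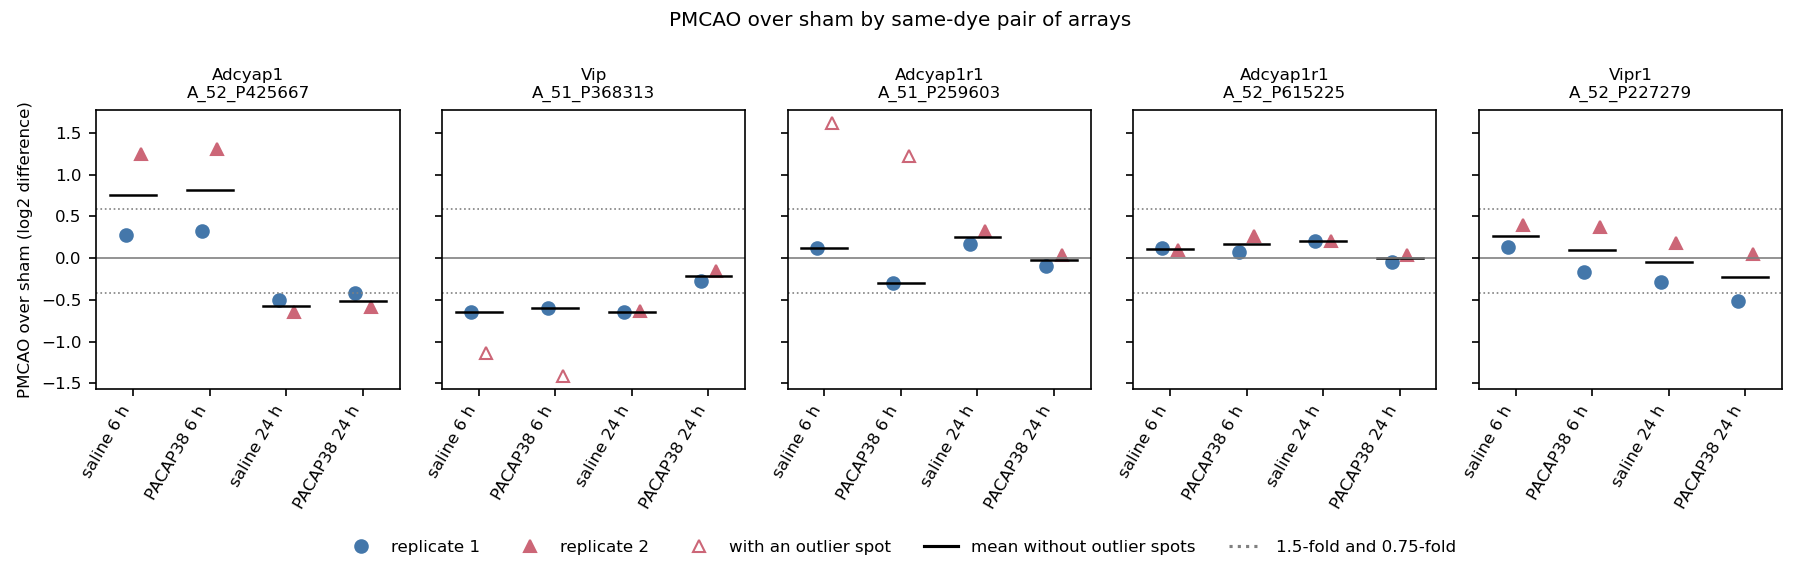
PMCAO over sham (log2 difference of same-dye channels) for the 5 measured probes in saline and PACAP38 mice at 6 h and 24 h, with replicate 1 as circles, replicate 2 as triangles, pairs with a marked spot hollow, the mean as a line and dotted lines at 1.5-fold and 0.75-fold. All Vip points lie below 0, and Adcyap1 lies above 0 at 6 h and below 0 at 24 h.

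Over the 4 values of PMCAO over sham (saline and PACAP38 at each time), no member passed limma's moderated test, and 0.0% of the 36121 probes tested passed at an adjusted p under 0.05 (7951 probes had an unadjusted p under 0.05). The saline and PACAP38 values of one time share their 4 arrays, so the 4 values are not fully independent. The mean difference was 0.13 ± 0.31 (SE) for Adcyap1 with an adjusted p of 0.816, and -0.12 ± 0.21 with an adjusted p of 0.785 without sham 6 h replicate 2, so that its sign turned on that array. For Vip, with 6 h values from replicate 1 arrays alone, it was -0.52 ± 0.11 with an adjusted p of 0.213, and with the marked spots kept -0.68 ± 0.17 with an adjusted p of 0.157 (limma, Benjamini-Hochberg). In Vip all 4 values were below 0. Adcyap1r1 had a mean of 0.01 ± 0.12 (A_51_P259603, adjusted p = 0.974, limma, 6 h from replicate 1) and 0.12 ± 0.11 (A_52_P615225, adjusted p = 0.52, limma), and Vipr1 of 0.02 ± 0.13 (adjusted p = 0.93, limma). Without that array A_52_P615225 was at 0.10 ± 0.09 (adjusted p = 0.589) and Vipr1 at -0.08 ± 0.10 (adjusted p = 0.7, limma). These p-values measure the spread between pools, arrays and the 2 times, not between mice. A difference between 6 h and 24 h, as in Adcyap1, thus enters the error. An exact sign-flip test over 4 pairs cannot give a two-sided p under 0.125, so none was run.

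Whether PMCAO acted differently at the 2 times was tested as the difference of the 24 h and 6 h values. Adcyap1 passed, with -1.33 ± 0.15 and an adjusted p of 0.0151 (limma), as did 23.1% of all probes tested. Without sham 6 h replicate 2 the difference for Adcyap1 was -0.84 ± 0.14 with an adjusted p of 0.16, and 0.0% of 40200 probes passed (6820 had an unadjusted p under 0.05). The call of Adcyap1 thus rested on that array, and the sign was negative under every alternative run (adjusted p from 0.00131 to 0.22, limma). The test also takes its error from the gap between saline and PACAP38 values read from the same arrays, which leaves out the spread between arrays. No other measured member passed, with adjusted p values of 0.224 for Vipr1 and 0.884 for A_52_P615225, and of 0.655 for Vip and 0.673 for A_51_P259603 without that array (limma).

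Injection of PACAP38 was followed by no difference past the limits in any measured member. In PACAP38 over saline 0 of 5 measured probes were past 1.5-fold or 0.75-fold in each of the 4 comparisons. Of all probes 11.5% were past these limits in the sham and 12.3% in the PMCAO comparison of 6 h, and at 24 h the shares were 5.62% (sham) and 11.2% (PMCAO). Among probes well above background in every channel of the comparison these shares were 2.55%, 4.14%, 0.971% and 7.03%, so that 0 of 5 is close to the share of the array.

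The transcript of the injected peptide itself, Adcyap1, was level between the treatments. The log2 ratio of PACAP38 over saline on replicates 1 and 2 was 0.10 and -0.19 at 6 h in sham mice and 0.14 and -0.13 after PMCAO. At 24 h it was 0.02 and -0.01 in sham mice, and 0.10 and 0.05 after PMCAO. Only the last pair had the same sign on both arrays. The mean over the 4 pool pairs was 0.01 ± 0.03 (SE, adjusted p = 1.0, limma).

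Vip had the largest PACAP38-to-saline ratio among the measured members, in PMCAO at 24 h. There it was 0.60 and 0.29 on the 2 arrays, a mean of 1.36-fold (0.45 ± 0.21 on the log2 scale), with replicate 1 alone just past the limit at 1.51-fold. It was -0.03 and -0.28 in PMCAO at 6 h, whereas sham mice of 24 h had 0.22 and -0.19, and those of 6 h had -0.07 on replicate 1 (0.00 on the marked spot of replicate 2). The 2 arrays had the same sign in the PMCAO comparisons alone, below 0 at 6 h and above 0 at 24 h. Over the 3 pool pairs with values on both arrays the mean was 0.10 ± 0.15 with an adjusted p of 0.916 (limma).

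The bright Adcyap1r1 probe was lower with PACAP38 in both PMCAO comparisons. The log2 ratios were -0.22 and -0.28 at 6 h (0.84-fold) and -0.36 and -0.27 at 24 h (0.80-fold). In sham they were 0.20 at 6 h on replicate 1 (0.11 on the marked spot), and -0.11 and 0.02 at 24 h. The second probe read -0.07 and 0.13 in PMCAO at 6 h, and -0.18 and -0.16 at 24 h, so that the probes had the same direction at 24 h and not at 6 h. The mean over the pool pairs was -0.20 ± 0.07 for A_51_P259603 over 3 pairs (adjusted p = 0.847, limma) and -0.03 ± 0.05 for A_52_P615225 over 4 (adjusted p = 0.912, limma). The pair left out for A_51_P259603 was sham at 6 h, which lay above 0. With the marked spot kept its mean over 4 pairs was -0.11 ± 0.10 (adjusted p = 0.873, limma). For Vipr1 the mean was 0.04 ± 0.06 (adjusted p = 0.921, limma), with -0.27 and 0.30 on the 2 arrays of PMCAO at 6 h.

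**Figure D3:**
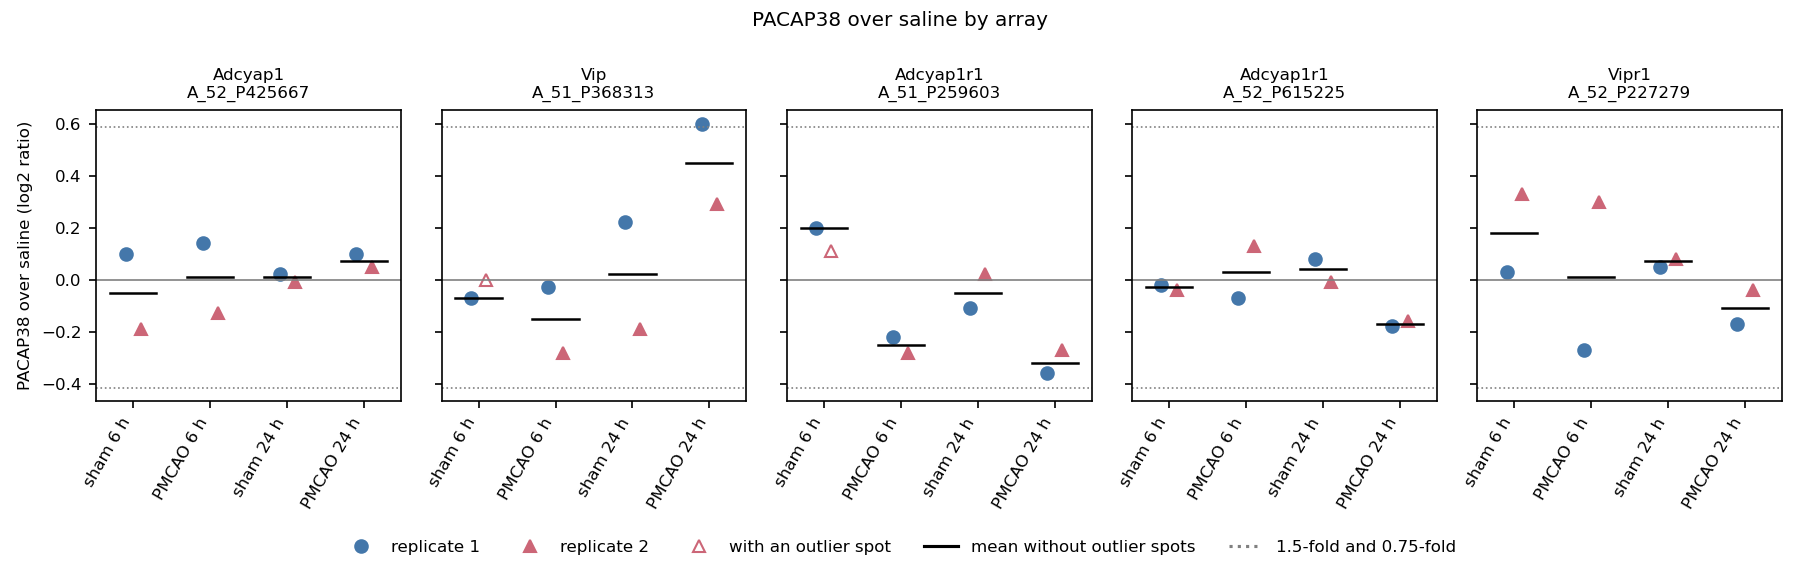
PACAP38 over saline (log2 ratio) for the 5 measured probes in the 4 comparisons, with replicate 1 (PACAP38 in Cy5) as circles, replicate 2 (PACAP38 in Cy3) as triangles, marked spots hollow, the mean as a line and dotted lines at 1.5-fold and 0.75-fold. All means lie between the dotted lines; Vip in PMCAO at 24 h is the highest (0.45) and Adcyap1r1 A_51_P259603 there the lowest (-0.32).

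Over all probes 0.0% of 36121 passed the limma test of PACAP38 over saline (1782 had an unadjusted p under 0.05, and the smallest adjusted p was 0.871). The response was also set between PMCAO and sham, as the difference of 2 against 2 pool pairs, and 0.0% of the probes passed (2337 at an unadjusted p under 0.05). Among the members the difference, PMCAO minus sham, was 0.06 ± 0.05 for Adcyap1 and -0.17 ± 0.08 for Vipr1, both with an adjusted p of 0.796 (limma), and -0.08 ± 0.10 for Adcyap1r1 A_52_P615225 (adjusted p = 0.85, limma). With the marked spots kept it was -0.34 ± 0.10 for A_51_P259603 (adjusted p = 0.793, limma) and 0.15 ± 0.26 for Vip (adjusted p = 0.886, limma). A probe that misses such a test with 4 pool pairs is not shown to be unchanged.

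Markers of other tissues and cells also differed between the pools of 24 h. The 4 measured olfactory bulb markers (S100a5, Tbx21, Doc2g and Th; Eomes was dim) were all lower with PACAP38 than with saline in PMCAO at 24 h, with a median log2 ratio of -2.21, although the bulb was not meant to be in the tissue. Their summed signal, all 5 included, was 2765 in the PMCAO saline pool at 24 h against 707 to 962 in the other 3 pools of that time. It ranged from 520 to 1690 at 6 h. In both comparisons of 6 h the 4 measured bulb markers were all higher with PACAP38, with a median of 1.83 in sham and 0.58 in PMCAO. The 5 endothelial markers (among them Cldn5, Pecam1 and Cdh5) were all lower with PACAP38 in PMCAO at 24 h, with a median of -0.47. In PMCAO at 6 h 0 of 5 were below 0, with a median of 0.23. They summed to 26856 in the PMCAO saline pool of 24 h against 18975 to 21974 in the other 3. The pool in which Vip was lowest and Adcyap1r1 highest was thus also the pool with the most olfactory bulb and endothelial signal. Among the pools of 24 h it also had the most signal of acute ischemia genes, 76846 against 32379 in the PMCAO PACAP38 pool. Astrocyte (40197 against 29622 to 36628) and choroid plexus signal (8466 against 6631 to 7812) were highest there too. Signal of interneuron, neuronal and cerebellum markers was lowest there. The part of these in the member values was not tested.

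Markers of cortical interneurons, of the VIP type and of other types together, had smaller differences than Vip in saline at 24 h. The cells that hold Vip were not read apart from the other interneurons. Of the 8 measured markers of cortical interneurons (such as Calb2, Htr3a, Sst, Pvalb, Gad1 and Gad2, of 9 on the array) 1 was past the limits in PMCAO over sham in saline at 24 h, Cck at -0.50, and the median was -0.01. In PACAP38 the median was -0.13 with 0 of 8 past the limits. Their summed signal was 101657 to 104055 in the sham pools and 84534 to 86599 in the PMCAO pools. The 4 measured neuronal markers (Snap25, Syt1, Nefl and Slc17a7) had a median of -0.17 in saline and -0.08 in PACAP38, with 0 of 4 past the limits. Vip in saline (-0.64) and Adcyap1 in both treatments (-0.57 and -0.51) thus lay lower than each of these 12 measured markers in the same comparison. At 6 h in saline this did not hold, since Gad1, an enzyme of GABA synthesis, was at -0.82 (-0.76 on replicate 1) beside -0.64 for Vip. Nor did it hold at 24 h for the 3 measured cerebellum markers. The cerebellum was not meant to be in the tissue, and where their signal came from was not tested. In saline Calb1 (-0.66) and Car8 (-0.69) lay lower than Vip, and Pcp2 (-0.01) did not. In PACAP38 Car8 (-0.62) lay lower than Adcyap1, and Calb1 (-0.25) and Pcp2 (-0.05) did not. The part of neuronal markers in the member values was not tested.

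**Figure D4:**
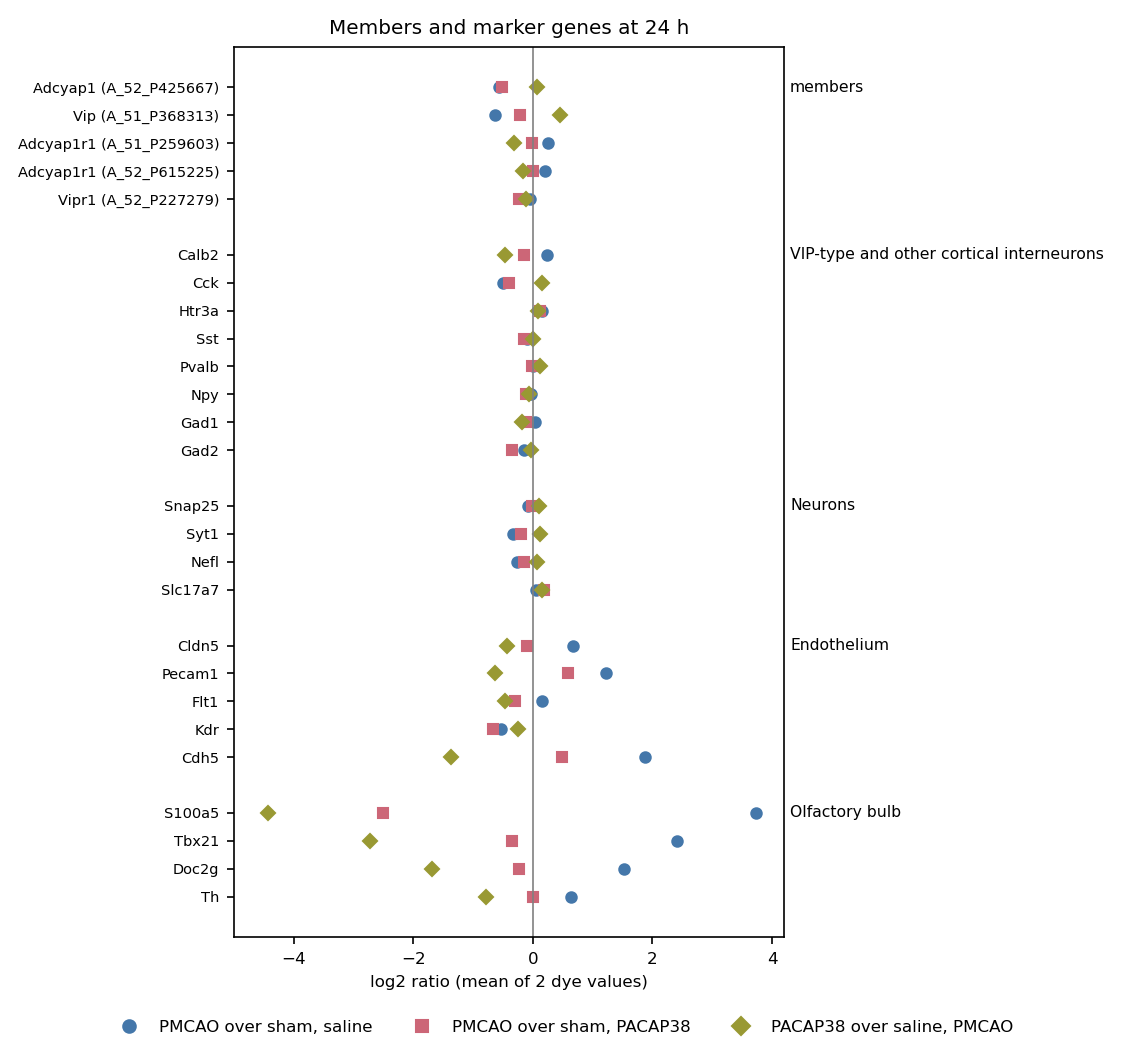
Log2 ratios at 24 h (mean of 2 dye values) of the 5 measured member probes and of the measured markers of interneurons, neurons, endothelium and olfactory bulb, for PMCAO over sham in saline (circles), PMCAO over sham in PACAP38 (squares) and PACAP38 over saline in PMCAO (diamonds). Adcyap1 and Vip in saline lie to the left of the interneuron and neuronal markers, and the olfactory bulb markers have the widest range.

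Both peptides are also known from the hypothalamus. Its 6 measured markers (among them Oxt, Hcrt and Trh) had a median of 0.04 in PMCAO over sham in saline and -0.25 in PACAP38 at 24 h, and of -0.43 in PACAP38 over saline in PMCAO, where all 6 were below 0. Of 5 suprachiasmatic nucleus markers on the array 4 were measured, and Six6 was not above background in any channel. Their summed signal at 24 h was 5965 in the PMCAO saline pool and 4045 to 4800 in the other pools. T cells, which carry VIP receptors, had 1 measured marker of 5, and their summed signal was 48 to 61 at 24 h. The occlusion itself was visible in the 7 measured genes of acute ischemia (such as Ccl2, Hmox1, Atf3 and Timp1), which were all higher in PMCAO than in sham at 24 h, with a median log2 difference of 3.77 in saline and 2.67 in PACAP38. All 7 were lower with PACAP38 than with saline in PMCAO at 24 h, with a median log2 ratio of -1.16. At 6 h in PMCAO the direction was the other, with a median of 0.59 and 1 of 7 below 0. Summed signal there was 104776 with PACAP38 and 49452 with saline. The part of these differences in the member values was not tested.

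The pathway around the members was read from 5 lists with 140 probes on the array (Crem is in 2 lists and was counted once), of which 126 could be tested. The remaining probes had a marked spot, and a range over a list covers the genes with a fit. Values of PMCAO over sham in the lists include sham 6 h replicate 2. None passed in PACAP38 over saline, in PMCAO over sham or in the difference of responses. In the 24 h minus 6 h test 9 were called higher and 26 lower, beside 3889 higher and 4461 lower among all probes (23.1% called), and 0 of 134 were called without sham 6 h replicate 2.

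Among the related ligands, 6 of the 10 genes on the array were measured. In PACAP38 over saline the list had a median of -0.11 against 0.00 for all probes, from Ucn (urocortin, a stress peptide) at -0.55 ± 0.31 to Pthlh at 0.10 ± 0.09. In PMCAO over sham it ran from Calcb, which was mostly below background, at -0.52 ± 0.31 to Adm (adrenomedullin, a vasodilator) at 1.30 ± 0.38 (adjusted p = 0.173, limma). Adm was at 2.69 in saline at 24 h and 0.94 in PACAP38. In the time difference 2 probes were called higher and 2 lower, led by Calcb and Ucn3, neither of them reliably above background.

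Of the related class B receptors and their partners, 11 of 15 genes were measured and 14 had a fit, and the list's median was -0.02 in PACAP38 over saline. The extremes there, Sctr at -0.30 ± 0.31 and Pth2r at 0.25 ± 0.15, were below background in nearly all channels. In PMCAO over sham the highest was Gipr (the receptor of the gut hormone GIP) at 1.18 ± 0.39 with an adjusted p of 0.193, and the lowest Pth2r at -0.77 ± 0.21 (limma). In the time difference 3 probes were called higher and 5 lower, led by Glp2r at 2.32 and Crhr1, a receptor of the stress hormone CRH, at -1.29. Their adjusted p was 0.0226 and 0.0164, and 0.217 and 0.171 without the array that stood apart (limma).

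All 10 genes of peptide maturation and breakdown were measured, and 9 had a fit. Pcsk1 and Pcsk2 are convertases that cut neuropeptide precursors, and Dpp4 and Mme are peptidases. In PACAP38 over saline the values ran from Pcsk4 at -0.27 ± 0.06 to Mme (neprilysin) at 0.30 ± 0.19, with a median of 0.06. In PMCAO over sham they ran from Mme at -0.98 ± 0.20 (adjusted p = 0.138, limma) to Pcsk4 at 1.15 ± 0.11 (adjusted p = 0.0918, limma). Pcsk1 was at -0.67 in saline and -0.57 in PACAP38 at 24 h, close to the values of Adcyap1. In the time difference 1 probe was called higher and 8 lower, led by Pcsk1 at -1.67 with an adjusted p of 0.0189, and 0.0995 without that array (limma).

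All 24 genes of receptor coupling (G proteins, adenylate cyclases, protein kinase A, Epac, phospholipase C and CREB) were measured, but only 17 had a fit. Among these 17, PACAP38 over saline ran from -0.09 ± 0.16 (Adcy5) to 0.13 ± 0.04 (Rapgef4, Epac 2), with a median of 0.04. PMCAO over sham ran from -0.35 ± 0.13 (Gnaq, which couples PAC1 to phospholipase C) to 0.36 ± 0.15 (Adcy9). In the time difference 2 probes were called higher and 7 lower, led by Gna11 at 0.85 and Adcy8 at -0.91.

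Of the 14 genes known to respond to PACAP or VIP, 12 were measured and 11 had a fit (Egr1, Nr4a1 and Tac1 had none). The median in PACAP38 over saline was 0.00, from Fos, an immediate early gene, at -0.26 ± 0.53 to Adnp (activity-dependent neuroprotector homeobox, a VIP-responsive gene) at 0.15 ± 0.07. These means over the pool pairs can hide opposite values. In PMCAO the ratio was 0.68 at 6 h and -1.98 at 24 h for Fos, and 1.6 and -2.28 for Il6. Crem had 0.35 and -0.05, and Adnp -0.0 and 0.36. Such values of 1 pool pair were not tested. In PMCAO over sham Crem was the lowest of those 11 at -0.34 ± 0.12 and Il6 highest at 3.11 ± 0.85 (adjusted p = 0.165, limma), with Il6 above background in 8 of 16 channels. At 24 h PMCAO over sham was 1.5 for Fos and 5.78 for Il6 in saline, and -0.84 and 3.77 in PACAP38. Egr1, named after its values were seen, was at -0.53 and -1.62 there, and Crem at -0.32 and -0.45. In the time difference 1 probe was called higher and 6 lower, led by Bdnf, a neurotrophin, at -1.67 (adjusted p = 0.0227, and 0.19 without that array, limma).

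Cyclic AMP is known to act on genes through CREB at the motif TGACG (or CGTCA on the other strand), and the promoters are shown because the members act through cyclic AMP. In the RefSeq windows of 300 bases around each gene start (GRCm38.p6), 3 of the 5 members held it on either strand, and 20.8% of all 32851 windows did. The first count is by gene and the second by window, so they are not the same measure. The full site TGACGTCA, which contains the shorter motif on both strands, was in none of the member windows and in 1.79% of all. The windows of Adcyap1 (6 member windows were listed, 2 of these for Adcyap1 and overlapping), Vip and Vipr1 are shown for 30 bases around the motif, with the motif in capitals.
Adcyap1 (chr17:93198914-93198943, plus strand): ggactaggatgcTGACGtcttttactgata
Vip (chr10:5639127-5639156, plus strand): ggatcactactgTGACGtctttcggggagc
Vipr1 (chr9:121642691-121642720, plus strand): aaccccgccgccCGTCAgacgagcccccgc
The motif began 91 bases before the start for Adcyap1, 79 for Vip and 13 for Vipr1. Adcyap1 and Vip shared the 10 bases TGACGTCTTT there, which 23 of all windows held (0.07%). This run was picked as the longest that the 2 stretches share, and the 23 include their own windows. The share is thus no test of a common site. A match of letters is no proof of a site, and neither ligand was past the limits with PACAP38.

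The genes whose levels were most like those of each member over the 8 pools, centred within each time, were looked up among 14901 probes above background in every channel (14900 for Adcyap1r1). The pools of one time share arrays, and the array that stood apart entered 2 of the 8. For Adcyap1 these were Rab6b (Pearson r = 0.997, and 0.987 without that array), Zbtb17 (0.997 and 0.842) and Nrp1 (0.997 and 0.832). For Vip these were Iqgap2 (0.995 and 0.929), Prkdc (0.994 and 0.945) and Pnma2 (0.990 both ways). For Adcyap1r1 A_51_P259603 these were Stab1 (0.978 and 0.981), Xlr4b (0.968 and 0.980) and Fads3 (0.950 and 0.577), whereas A_52_P615225 gave Itpkc (0.990 and 0.989), Myo1g (0.988 and 0.799) and Ccrl2 (0.987 and 0.973). The 2 probes of Adcyap1r1 thus had no gene in common. For Vipr1 the likeness of Serf2 (0.983) and Aig1 (0.957) was lost without that array (0.086 and -0.01), and that of Rsc1a1 was 0.977 and 0.914.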

How the data were processed

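RNA of the right hemisphere was labeled and hybridized to 8 two-colour Agilent arrays, 2 for each of 4 pool pairs. Per the file headers the array images were processed with Feature Extraction 9.5.1.1 (6 h) and 9.5.3.1 (24 h), whereas the methods name 9.5.3.1 alone. The deposited log10 ratio is Cy5 over Cy3 after background subtraction and dye normalization. The deposited intensity columns hold raw, background and processed signals, and flags mark outlying or dim spots. The authors' series table holds scores with a minus sign where PACAP38 is in Cy3, and their size differed by at most 0.005 from the ratio of the processed signals. The labels number the 2 arrays of a pair as pools, but the methods describe a flip labeling of pooled RNA, so these were averaged as technical repeats.

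Log2 ratios were used, with the opposite sign where PACAP38 was in Cy3. PMCAO over sham was the difference of same-dye channels after Aquantile scaling in limma 3.58.1 (R 4.3.3). Control and outlier spots were left out, and a probe entered a fit with a value on all 8 arrays. Tests were limma's moderated test with Benjamini-Hochberg adjustment at 0.05 over all probes. They were tried on simulated data with independent values, which lack the shared arrays of PMCAO over sham. That trial therefore could not check the error of the 24 h minus 6 h test. The array numbers limit the precision. The members, lists, named genes (per list the extremes or, where called, the largest in each direction, by the brightest probe; 3 most alike genes per measured probe; markers and Egr1 apart) and tests were chosen with earlier results of these data known. The treatment of the marked spots over 3 pool pairs and the fits without sham 6 h replicate 2 were added after seeing the data. List names were matched through RefSeq symbols and synonyms. Python 3.11.15, numpy 2.4.6, pandas 2.3.3 and matplotlib 3.10.9 were used.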

Additional observations from a re-analysis of the deposited data

Results flagged for a closer look

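Adcyap1 differed between times in PMCAO over sham, by -1.33 on the log2 scale (24 h minus 6 h, adjusted p = 0.0151, limma), and in saline and PACAP38 alike every same-dye pair was above 0 at 6 h and below 0 at 24 h, with a difference of -1.33 in each that was not tested by itself. Without sham 6 h replicate 2 the difference was -0.84 with an adjusted p of 0.16 (limma).

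Vip in PACAP38 over saline was below 0 on both arrays of PMCAO at 6 h (mean -0.15) and above 0 on both at 24 h (mean 0.45), a difference of 0.60 that was not tested, since each time has 1 pool pair.

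Vipr1 in PACAP38 over saline at 24 h was above 0 on both arrays of sham (mean 0.07) and below 0 on both of PMCAO (mean -0.11), a difference of -0.18 that was not tested.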

How the results depend on the processing

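In PACAP38 over saline and in the difference of its response between PMCAO and sham, limma called 0 probes under every alternative run (1493 to 4695 and 1519 to 2575 at an unadjusted p under 0.05). Of the values of measured members under alternatives, 156 counted as the same and 10 as moved in PACAP38 over saline, and 154 and 15 in PMCAO over sham. A value of a single comparison counted as moved if it shifted by more than its spread between dyes, taken as 0 where no spread could be given. A fit counted as the same if its call did not differ, whatever the shift in its mean. The calls that differed were those of Adcyap1 (24 h minus 6 h), which was at -0.76 without replicate 2 and -0.84 without sham 6 h replicate 2, neither called, and Vipr1, which was called there after normexp and loess (-0.24).

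PMCAO over sham had 0 calls, but 17 among probes well above background and 1989 with the replicate block, and 0 without either replicate or any pool pair. The 24 h minus 6 h test had 8350 calls (3889 higher), 10214 with 75th percentile scaling (3011 higher), 1684 with the replicate block, and 0 to 15023 when arrays were left out, 113 of these without replicate 2 and 15023 without replicate 1. Under 75th percentile scaling the median of all probes was -0.24 in this test and 0.15 in PMCAO over sham, against -0.01 in each. The replicate number marks the dye orientation and pairs no animals. Deviations of same-numbered arrays correlated at r = -0.05 to 0.83 over 21139 probes. The replicate block changed no member call.

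Shares of probes past the limits in PACAP38 over saline (sham 6 h, PMCAO 6 h, sham 24 h, PMCAO 24 h) were 1.83%, 2.77%, 1.12% and 4.57% when both dye values had to pass, and 0.109%, 0.274%, 0.187% and 2.95% after normexp and loess. With 1.5-fold either way the share in sham at 24 h was 3.5%, and it was 17.0% in sham at 6 h without sham 6 h replicate 2. In PMCAO over sham (saline and PACAP38 at 6 h, then at 24 h) they were 20.8%, 12.2%, 13.9% and 6.36% with both dyes, and 20.7%, 17.7%, 6.28% and 2.61% after normexp and loess. Signal over background sets the limit for Vipr2, and 1 pool a group for all members.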
